A study of Caenorhabditis elegans with 2 samples.

Results

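This account concerns the genes for microRNA (miRNA) precursors of Caenorhabditis elegans and where they lie relative to the DNA bound by a tagged F57A8.1 protein. Members were all genes of biotype miRNA on the 6 nuclear chromosomes in Ensembl release 115 on the WBcel235 assembly, which gave 261 genes out of 46890 annotated nuclear genes. Of these, 257 carried a let-7, lin-4, lsy-6 or mir- symbol in RefSeq, 3 took their name from Ensembl (mir-55b, mir-58c and mir-12134), and F39B1.3 had no miRNA name. There were 74 on X, 50 on IV, 49 on II, 33 on I, 28 on V and 27 on III. Annotated precursors were short, with a median of 95 bp, and let-7 was the longest, at 1732 bp.

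Whole worms were analysed by ChIP-seq, the sequencing of DNA recovered with a protein by an antibody, here one against GFP. The worms were of strain OP757. This strain carries the unc-119(tm4063) mutation and the transgene wgls757, in which F57A8.1 is fused to the TY1, EGFP and 3xFLAG tags beside a working unc-119 copy. Both samples were young adults of 65 hours, males and females pooled, synchronised as starved L1 larvae, and they are biological replicates 1 and 2 of 1 group. The labels do not say which promoter drives the fusion, whole animals mix all tissues, and chromatin was sheared to between 200 and 800 bp. The data are 4 peak lists: 30000 peaks for each replicate, 30000 for both replicates pooled, and the 295 of the pooled list that passed the authors' IDR threshold, a limit on irreproducibility between replicates. These were also the 295 pooled peaks with the highest signal, down to 85.7. A place in the thresholded list is therefore the same as a pooled rank up to 295. The lists give no read depth. With 1 group and 2 replicates no share or signal below was tested, and values are descriptions with their background beside them.

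miRNA genes are usually transcribed by RNA polymerase II into long primary transcripts, from which Drosha cuts the hairpin precursor and Dicer the mature RNA of a little over 20 bases. An Argonaute protein then carries the mature strand to messenger RNAs that pair with its seed, the bases from position 2 to 8, and genes with the same seed are often grouped as a family. lin-4 and let-7, which time larval development, were found in this worm. The start of the primary transcript is seldom the annotated end of the hairpin, so summits were counted within 250 bp of the precursor and, separately, within 1000 bp upstream of its 5′ end.

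Mature miRNAs of the families at the strongest peaks are shown to make their kinship visible. The sequences are RefSeq's on WBcel235, 5′ to 3′, with the seed in capitals. All 6 members of the mir-51 family, the relatives of miR-99 and miR-100 of other animals, share the seed ACCCGUA, on the 5′ arm in the genes of chromosome IV and on the 3′ arm in those of X.
mir-51, 5′ arm: uACCCGUAgcuccuauccauguu
mir-52, 5′ arm: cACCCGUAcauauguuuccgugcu
mir-53, 5′ arm: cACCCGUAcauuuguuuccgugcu
mir-54, 3′ arm: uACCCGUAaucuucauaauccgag
mir-55, 3′ arm: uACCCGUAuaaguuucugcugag
mir-56, 3′ arm: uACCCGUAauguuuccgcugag

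The bantam family, named for the Drosophila miRNA bantam, is the other family with a thresholded peak. Here mir-80, mir-81 and mir-82 share the seed GAGAUCA, and mir-58.1 ends its seed in G.
mir-80, 3′ arm: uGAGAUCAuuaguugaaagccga
mir-81, 3′ arm: uGAGAUCAucgugaaagcuagu
mir-82, 3′ arm: uGAGAUCAucgugaaagccagu
mir-58.1, 3′ arm: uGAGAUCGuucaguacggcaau

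For 3 miRNA genes, mir-51, mir-80 and mir-54, a thresholded summit lay within 250 bp, and no other short non-coding gene of the tRNA, snoRNA, snRNA, rRNA or spliced-leader classes lay within 250 bp of it. That is 1.15% of the 261, where 0.28% of equally long spans at protein-coding 5′ ends and 0.174% of all genome positions had such a summit. At all 3 the summit was upstream, 105 to 201 bp from the 5′ end of the hairpin, and away from protein-coding 5′ ends, the nearest being 3211, 11644 and 3694 bp off. In the same list 16.3% of tRNA genes and 12.7% of snoRNA genes had a summit within 250 bp.

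mir-51 had the highest signal of any miRNA gene in all 3 non-thresholded lists. It lies on the minus strand of chromosome IV from 11026013 to 11026112, outside protein-coding genes, and the pooled summit at 11026217 was inside F36H1.17, an annotated non-coding RNA of unspecified kind. Its signal, in the authors' units, was 79.2 in replicate 1 and 101 in replicate 2, and 180.0 in the pooled list. The replicates put their summits 106 and 100 bp upstream of the hairpin. They ranked this site 28 and 29 of 30000, and the pooled list ranked it 20, so all 3 lists had it near their top. A weaker pooled summit with signal 29.2 lay further upstream, at -622 bp from the 5′ end.

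mir-80 is on the minus strand of III from 8865270 to 8865367. Signal there was 41.7 in replicate 1 and 62.5 in replicate 2, with ranks 360 and 161, and 103 in the pooled list with rank 158. The pooled summit was 117 bp upstream of the hairpin and a lesser one, with signal 51.2, was 316 bp upstream. Replicate 2 also had both, at -112 and -327 bp from the 5′ end, while replicate 1 had a single summit in this stretch, at -163 bp.

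At mir-54 the replicates parted. This gene, on X from 13144996 to 13145094, heads a cluster with mir-55 and mir-56 in an intron of F09A5.3, which runs on the opposite strand. Signal was 21.4 with rank 10366 in replicate 1, but 80.1 with rank 70 in replicate 2, and 95.03 in the pooled list with rank 205. Of the replicates, only replicate 2 ranked this thresholded site near its top, although replicate 1 had its own summit 196 bp upstream against 201 bp in the pooled list. How each replicate entered the thresholded call was not examined. At the far end of the same cluster the order within 250 bp turned round. Near mir-56 and mir-55 the best summit there had signal 39.3 and rank 514 in replicate 1, and 23.7 and rank 11837 in replicate 2. That order rests on the limit. Just past 250 bp from mir-56, at 13144409, replicate 2 had a summit with signal 49.0 and rank 501.

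**Figure D1:**
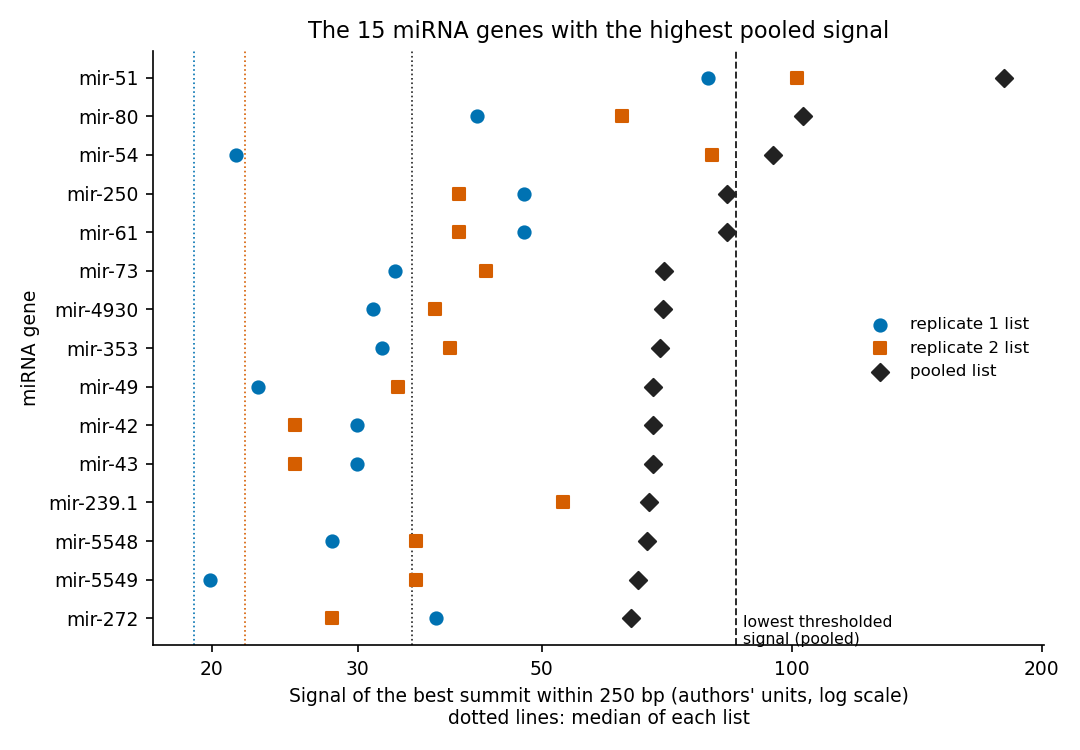
The 15 miRNA genes with the highest pooled signal within 250 bp are listed down the page, and each point gives the signal of the best summit in the replicate 1, replicate 2 or pooled list on a log axis in the authors' units. Only mir-51, mir-80 and mir-54 pass the dashed line at 85.7, the lowest thresholded signal; mir-239.1 has no replicate 1 point, and mir-250 with mir-61, and mir-42 with mir-43, share a summit.

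The sequence at these 3 thresholded summits is shown because the thresholded result rests on them. Each line gives 101 bases of WBcel235 (RefSeq) centred on the pooled summit, 5′ to 3′ on the minus strand, which is the strand of the miRNA. Capitals mark the letters CGTCCG on either strand, a sequence picked out after these windows were read.
mir-51, chrIV:11026167-11026267: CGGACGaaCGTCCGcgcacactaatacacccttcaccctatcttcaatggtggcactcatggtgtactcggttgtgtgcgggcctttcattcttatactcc
mir-80, chrIII:8865434-8865534: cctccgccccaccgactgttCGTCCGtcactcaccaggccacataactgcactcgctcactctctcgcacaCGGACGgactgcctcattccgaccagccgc
mir-54, chrX:13145245-13145345: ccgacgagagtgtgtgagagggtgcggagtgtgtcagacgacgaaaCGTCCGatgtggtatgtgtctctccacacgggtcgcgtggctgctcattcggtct

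CGTCCG, read on both strands, was in each of these 3 windows, which are the windows it was picked from. Apart from them it was in 1 of the 77 other windows at distinct pooled peaks of miRNA genes, against 1.74% of all 30000 pooled windows. GC content was 52.5% at mir-51, 64.4% at mir-80 and 59.4% at mir-54; the median over the 80 windows was 45.5%, against 41.6% over all pooled windows. Of 5 other sequences searched, 4 were less frequent at the miRNA windows than at the thresholded peaks, and GAGAGA was not. GAACCC was in 3.75% of the miRNA windows, against 3.02% of all pooled and 14.2% of thresholded windows. AGAGCG was in 2.5% against 2.81% and 16.9%, and ACGCAG in 2.5% against 3.1% and 13.9%. The B box of tRNA genes was in 1.25% against 0.723% and 11.2%. GAGAGA was in 16.2% of miRNA windows, against 7.75% of all pooled and 15.3% of thresholded ones. All were searched on both strands, GAACCC and the B box can overlap, and a match is only a match of letters.

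In the non-thresholded pooled list 90 of 261 miRNA genes (34.5%) had a summit within 250 bp, at 80 distinct peaks. The background was 21.3% for equally long spans at protein-coding 5′ ends and 17% for all genome positions. In replicate 1 it was 78 genes (29.9%, against 21.3% of protein-coding 5′ ends and 17.2% of positions) and in replicate 2 it was 91 (34.9%, against 20.8% and 16.7%). Both replicates had a summit at 46 genes, or 17.6%, where 8.32% of protein-coding 5′ ends had one in both, and 44 of the 46 had a pooled summit too. A further 32 genes had a summit in replicate 1 alone and 45 in replicate 2 alone, so more genes had a summit in a single replicate than in both. In no list was there a summit within 250 bp of 135 genes. The class stood well below the short non-coding genes with strong peaks, since the pooled list had a summit at 77.5% of tRNA, 49.4% of snoRNA and 45% of snRNA genes.

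Median pooled signal at the 90 genes was 40.4 (quartiles 32.9 and 56.1), against 34.9 (quartiles 29.7 and 42.6) for the whole list. Counted once per peak, the median was 37.1, since clustered genes share some of the stronger peaks. The 1000 highest pooled peaks lay within 250 bp of 13 miRNA genes (4.98%), against 0.971% of protein-coding 5′ ends and 0.591% of positions. For the 5000 highest the figures were 37 genes (14.2%), 4.19% and 2.94%, and for the 10000 highest 46 genes (17.6%), 7.95% and 5.84%. Only 12 of the 90 (13.3%) had a protein-coding 5′ end no more than 500 bp from the summit, where 22.1% of all pooled summits did.

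**Figure D2:**
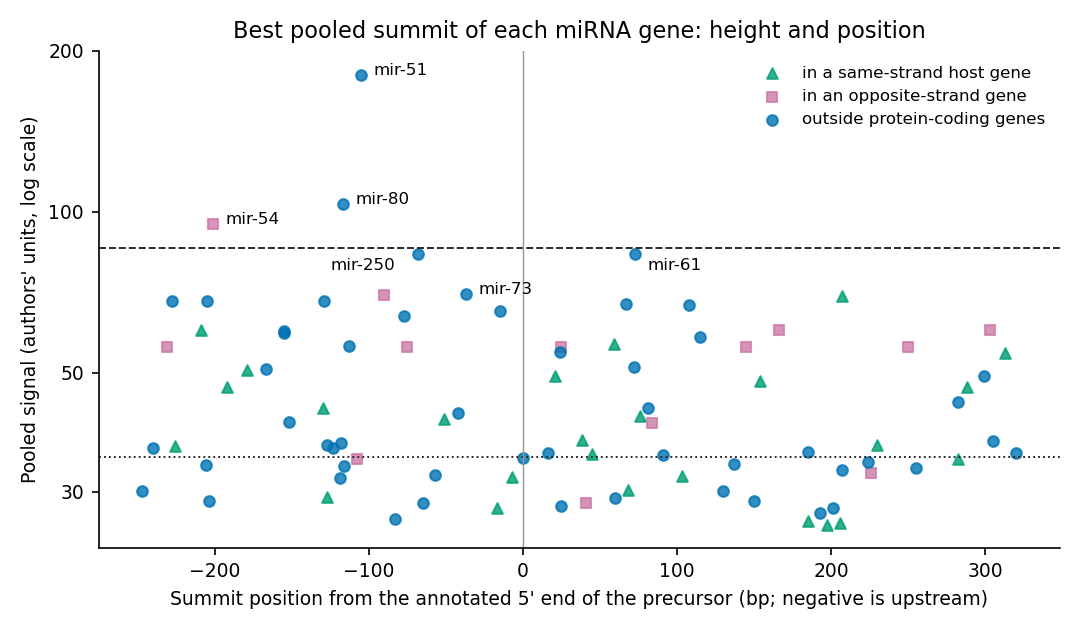
Each point is the best pooled summit within 250 bp of a miRNA gene, placed by its distance from the annotated 5′ end in bp (negative is upstream) and its pooled signal on a log axis, with the symbol giving the gene's place relative to protein-coding genes. The 3 genes above the dashed line at 85.7 all have their summit upstream, while points near the dotted list median of 34.9 lie on both sides.

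Below the threshold the next members were mir-61 and mir-250, which form a pair on V spanning 240 bp and share a summit at 11770083, inside mir-61 and 68 bp upstream of mir-250. mir-61 is known as a target of LIN-12/Notch in vulval precursor cells. The pooled signal was 83.5, rank 332, with 47.6 (rank 191) in replicate 1 and 39.8 (rank 1323) in replicate 2. Among the 295 highest peaks of replicate 1 alone, mir-51, mir-61 and mir-250 were the members with a summit; among those of replicate 2 alone they were mir-51, mir-80 and mir-54. Of members in the 1000 highest peaks, 10 in replicate 1 and 6 in replicate 2, the genes in both were mir-51 and mir-80.

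mir-73, a member of the mir-72 family, heads a cluster with mir-74 and mir-75 on X. It followed with pooled signal 70.2 at a summit 37 bp upstream. The best replicate summits lay apart, with 33.3 at -199 bp from the 5′ end in replicate 1 and 42.9 at 50 bp in replicate 2. Replicate 1 also had a weaker summit, with signal 24.6, at the 5′ end itself. mir-4930, in an intron of the opposite-strand gene Y38F2AR.10, had 70.0, with 31.3 and 37.2 in the replicates. mir-353 was the highest member inside a host gene of its own strand: it lies in an intron of rpl-24, a ribosomal protein gene, and the summit with signal 69.5 was 192 bp from the 5′ end of D1007.10. mir-49 (68.1), mir-42 with mir-43 (68.0 at a shared summit), mir-5548 (66.9), mir-5549 (65.2) and mir-272 (64.0) were next. mir-239.1 had 67.3, but its summit lay within 250 bp of the snoRNA gene C34E11.20 and was seen in replicate 2 alone, at 53.1. The other members beside another short non-coding gene were mir-77 (59.3, at the snoRNA gene T21B4.20) and mir-1829.3 (30.1, at the tRNA gene F39B1.t1).

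**Figure D3:**
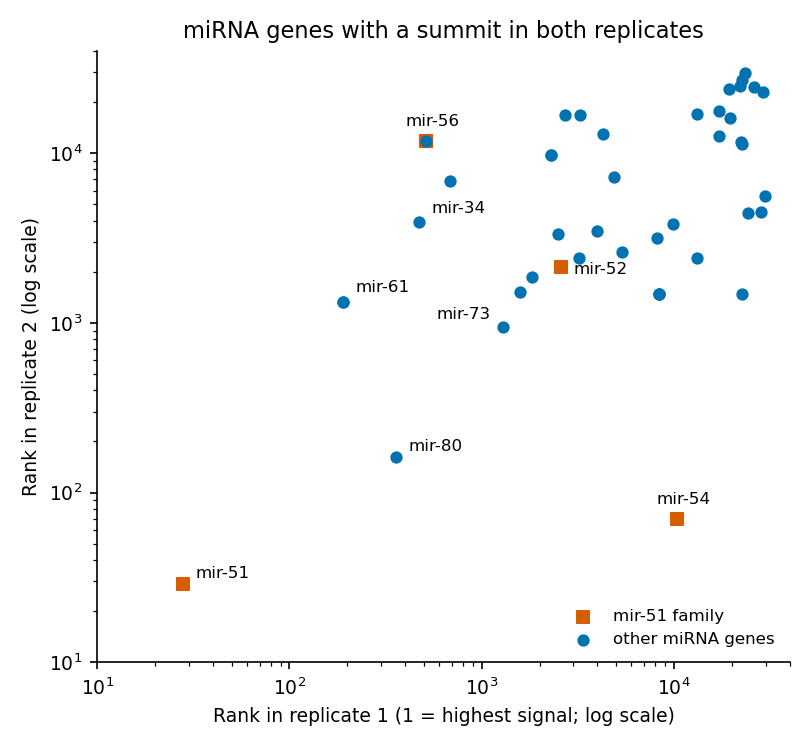
Each point is a miRNA gene with a summit within 250 bp in both replicates, placed by the rank of its best summit in replicate 1 and replicate 2 on log axes, where 1 is the highest signal. mir-51 sits at ranks 28 and 29, mir-54 at 10366 and 70, and mir-56 at 514 and 11837; mir-55 and mir-55b fall on the point of mir-56.

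Across the 46 genes with a summit in both replicates the signals had Pearson r = 0.61 and Spearman rho = 0.47, given as a description, since neighbouring genes share peaks and both lists share a control. The replicate summits were a median of 63 bp apart, and at 28 of the 46 they were within 100 bp. For 16 genes the nearest pooled summit was inside the 250 bp limit by less than 50 bp, the last being mir-785 at 247 bp, and for 2 genes it was past the limit by no more than 50 bp, mir-1819 at 271 bp and mir-796 at 276 bp.

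Upstream of the annotated 5′ end, within 1000 bp, 96 miRNA genes (36.8%) had a pooled summit, against 28% of protein-coding genes and 26.7% of positions. Replicate 1 had 102 (39.1%, against 28% and 27.1%) and replicate 2 had 101 (38.7%, against 28.2% and 26.5%). Thresholded summits were there for 5 genes (1.92%, against 0.631% and 0.293%), which are mir-51, mir-80 and the cluster of mir-54, mir-55 and mir-56, so 3 peaks account for them. After these and mir-250 came mir-253, in an intron of F44E7.5, with a pooled signal of 70.5 at 322 bp upstream, 36.9 in replicate 1 and 36.6 in replicate 2. mir-73 and mir-74 shared the summit with signal 70.2, at 37 and 315 bp, and mir-4930 had its own 90 bp upstream.

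Placement around the hairpin was not one-sided. Of the 80 distinct peaks, 34 had the summit upstream of the 5′ end of the nearest member, 16 inside it and 30 downstream of it, with the median at 31.5 bp downstream of the 5′ end (quartiles -114 and 157 bp). Among the 11 of these peaks that ranked in the top 1000, 7 were upstream. In bins of 200 bp, miRNA genes outside protein-coding genes had a summit most often just upstream of and over the 5′ end, at 13.5% and 12.3% of genes, against 6.69% and 7.96% of protein-coding genes in the same bins.

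**Figure D4:**
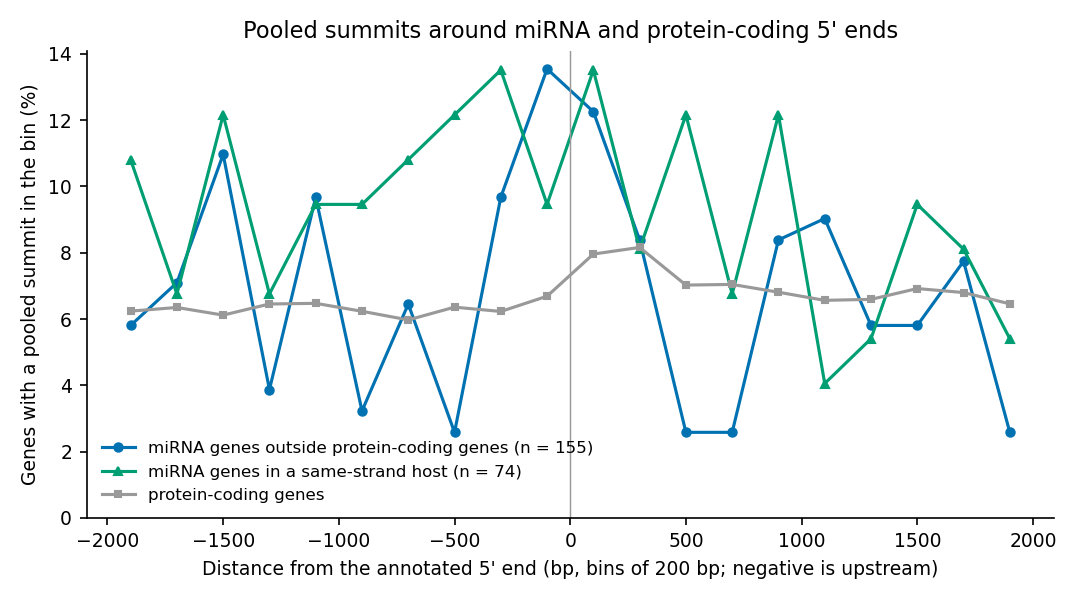
The lines give the percentage of genes with a pooled summit in each bin of 200 bp around the annotated 5′ end for 155 miRNA genes outside protein-coding genes, 74 miRNA genes within a host gene of the same strand, and all protein-coding genes. The line for genes outside hosts reaches 13.5% in the bin just upstream and moves between 2.58% and 11.0% beyond 400 bp on either side, so single bins rest on few genes.

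Host genes made little difference to the count within 250 bp. Of 74 miRNA genes inside a protein-coding gene of the same strand 25 (33.8%) had a pooled summit, against 65 of the other 187 (34.8%); of these 187, 32 were inside a gene of the opposite strand, with 13 summits, and 155 outside any, with 52. The stronger peaks were mostly at genes without a same-strand host, which held 12 of the 13 members with rank up to 1000 and all 3 thresholded ones. Upstream of the hairpin the order was different, with a pooled summit at 37 of 74 in same-strand hosts (50%), 14 of 32 inside a gene of the opposite strand alone (43.8%) and 45 of 155 outside (29%). The background for this window was 28% of protein-coding 5′ ends and 26.7% of positions, so the share outside was near it. The difference between the groups was not tested.

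Of 24 clusters, defined as neighbours on 1 strand at most 5 kb apart, 16 had a pooled summit within their span or 250 bp of it. The 24 spans ran from 207 to 7573 bp, and no background was counted for such lengths. The 69 clustered genes had a pooled summit within 250 bp in 28 cases (40.6%), against 62 of 192 single genes (32.3%), and the clustered genes share peaks. In the mir-35 to mir-41 cluster on II, whose products are abundant in oocytes and embryos, there was 1 pooled summit, over mir-37, with signal 55.8; 5 of its 7 genes were within 250 bp of it. Within 250 bp of mir-37 the best replicate 1 summit had signal 22.7 and lay inside mir-38, 179 bp from the 5′ end of mir-37. That of replicate 2 had signal 38.9 and lay 3 bp upstream of mir-37. The cluster of 11 genes on X from mir-4807 to mir-4921 had a single summit, with signal 36.7, and none of its genes was within 250 bp of it. The cluster of mir-229, mir-64, mir-65 and mir-66 on III had no pooled summit.

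Pooled summits within 250 bp were also counted by family, beside 34.5% of all miRNA genes and 21.3% of protein-coding 5′ ends; the families are small, their members share peaks, and no difference between them was tested. In the mir-51 family it was 6 of 6, at 5 distinct peaks of unequal signal: mir-52, alone on IV with the summit 155 bp upstream, had 29.2 in replicate 1, 36.2 in replicate 2 and 59.8 in the pooled list, and mir-53 had 26.3 in replicate 2, none in replicate 1 and 28.8 in the pooled list. In the bantam group, taken here as mir-58.1, mir-80, mir-81, mir-82 and the 3 mir-2209 genes, it was 5 of 7. By the exact seed GAGAUCA, which leaves out mir-58.1, mir-2209.2 and mir-2209.3 and adds mir-58.2 and mir-58c, it was 4 of 6. Besides mir-80 the 5 were mir-82 (50.6), mir-2209.1 and mir-2209.3 (36.2 at a shared summit) and mir-81 (34.5), and each of these 4 had a summit in only 1 replicate. mir-58.1, in an intron of phkb-1, had no pooled summit and a signal of 16.1 in replicate 1. The mir-35 family had 6 of 8, of which 5 rest on the summit over mir-37. Of mir-72, mir-73 and mir-74 all 3 had one, but only mir-73 had a summit in both replicates. The best pooled signals within 250 bp of mir-72 (32.2) and mir-74 (33.5) were below the list median of 34.9. Of the 6 genes with the seed GGCAAGA, which adds mir-266, mir-8187 and mir-8188 to these 3, it was 5. The mir-2 family had 2 of 4 and the mir-44 family 1 of 4.

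No member of the let-7 or lin-4 family had 1 of the 1000 highest pooled peaks within 250 bp, where 13 of all 261 miRNA genes did. These families are small, and the difference was not tested. In the let-7 family 3 of 7 (42.9%, beside 34.5% of all miRNA genes) had a pooled summit within 250 bp: mir-84 with 56.2 (26.4 in replicate 1 and 23.1 in replicate 2), mir-795 with 31.8 and mir-241 with 29.2. Within 1000 bp upstream it was 4 of 7 (57.1%, beside 36.8%). Among these were mir-241 with 49.0 at 651 bp and mir-48 with 43.1 at 515 bp. lin-4, in an intron of F59G1.4, had no pooled summit within 250 bp or 1000 bp upstream and a signal of 21.8, below the list median of 21.9, in replicate 2. Its homologue mir-237 had none within 250 bp in any list, and neither had lsy-6, which sets the left-right difference of the ASE taste neurons. let-7 itself had no summit within 250 bp of its annotated 1732 bp on X, from 14743590 to 14745321. The 5′ arm of its mature sequence lies well inside, at 14744234 to 14744255, so distances from this span are not distances from the hairpin. A thresholded summit stood 1834 bp upstream of that span, beyond the windows set here, at 14747155, with signal 86.6 in the pooled list, 46.6 (rank 208) in replicate 1 and 41.1 (rank 1138) in replicate 2. No background was counted for that distance.

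Of 11 miRNAs conserved in animals and studied for tissue roles, 4 had a pooled summit within 250 bp (36.4%), a share near the 34.5% of all miRNA genes. These were mir-34 (54.7, with 39.8 in replicate 1 and 31.9 in replicate 2), mir-87 (48.3), muscle mir-1 (40.5) and mir-71 (34.4). Each of the last 3 had a summit in a single replicate. Neuronal mir-124, in an intron of trpa-1, had its pooled summit 331 bp upstream, with signal 49.99. mir-236 and mir-233 also had theirs beyond 250 bp, at 378 and 642 bp upstream with 47.3 and 43.7. mir-79, mir-228, mir-235 and mir-252 had no pooled summit in either window.

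Numbers in miRNA names broadly follow the order of discovery, and the early names hold most of the conserved and abundant miRNAs. Genes were grouped here by number alone, so the early group also takes in mir-55b, mir-58.2 and mir-58c, which may be later additions. Of these, mir-55b counts through the summit that it shares with mir-55, and mir-58.2 and mir-58c had no pooled summit within 250 bp. Of the 61 genes let-7, lin-4, lsy-6 and mir-1 to mir-90, 33 (54.1%) had a pooled summit within 250 bp. It was 23 of 76 (30.3%) for mir-124 to mir-800 and 33 of 123 (26.8%) for mir-1018 and higher. A summit in both replicates was present at 21 (34.4%), 10 (13.2%) and 15 (12.2%) genes, and all 3 thresholded summits were in the early group. Counting only genes outside protein-coding genes, it was 17 of 33, 19 of 57 and 16 of 65. The split was made with these data known. Median signals of the genes with a summit were 55.8, 35.5 and 35.4; the first is the value of the summit that mir-35 to mir-39 share, and with each peak counted once the medians were 55.3, 36.1 and 35.2.

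**Figure D5:**
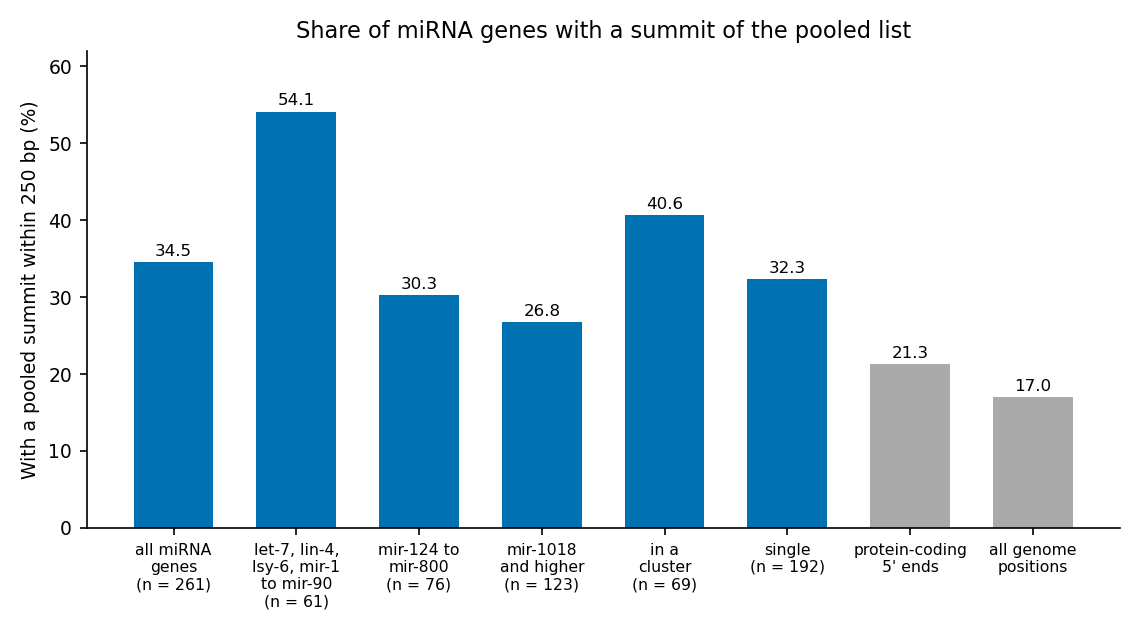
Bars show the percentage of miRNA genes, all and by name or clustering, with a pooled summit within 250 bp, followed by the same for equally long spans at protein-coding 5′ ends and for all genome positions. The early-named genes reach 54.1%, the other groups lie between 26.8% and 40.6%, and the backgrounds are 21.3% and 17%.

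By chromosome the pooled list had a summit at 39.4% of miRNA genes on I, 36.7% on II, 25.9% on III, 28% on IV, 32.1% on V and 39.2% on X. The background over all positions was 15.1%, 18.3%, 15.6%, 13.5%, 17.7% and 21% in the same order, so every chromosome was above its own. Precursors with a summit had a median GC content of 45.4%, against 40.6% for those without. Of the 261 genes, 6 have a hairpin identical to that of another gene, and none of these 6 had a pooled summit within 250 bp.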

How the data were processed

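ChIP-seq of 2 biological replicates, 1 group, was analysed from the deposited peak lists in ce11 coordinates, used as WBcel235. Per the deposited file descriptions, the authors called peaks on each replicate and on both pooled against 1 control file, and derived the thresholded list from those 3. Each peak's signal value and −log10 q are the authors' own; signal was used to rank peaks within a list. Read depth is unknown, and caller, aligner and scaling were not given in the sources used here. A summit is the interval start plus the summit offset of the deposited files, written 1-based. Names came from RefSeq by WormBase identifier, and 260 of 261 genes had a mature sequence there. Hosts are protein-coding genes whose span holds the precursor. Motifs were searched in 101 bp windows. Code (Python 3.11.15, NumPy 2.4.6, SciPy 1.17.1) was tested on simulated data.

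The members and lists were chosen with earlier results of these data known. Named genes are those with thresholded summits, the 15 highest within 250 bp and 10 highest upstream, and the listed families; others, such as the neighbours beyond 1000 bp, were named after their values were seen. Nothing says that the biological replicates were grown apart. Alternatives were other distances, interval overlap, the 5′ end, shorter lists, single replicates, distinct peaks, and other host and cluster rules.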

Additional observations from a re-analysis of the deposited data

How the results depend on the processing

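Of 34 alternatives, 26 left a count within 1.5 times, a median within the spread between replicates or a share within its 95% Wilson interval. That interval takes genes as independent, although neighbours share peaks, and the regrouped genes were largely the same ones. For shares it was a label only and tested nothing. Genes with a thresholded summit, 3 within 250 bp, numbered 0 within 100 bp, 5 within 500 bp and 1 in the 147 highest peaks. Genes with a pooled summit, 90, were 47 within 100 bp and 59 in the 15000 highest peaks. Those with a summit in both replicates, 46, were 17 within 100 bp and 81 within 500 bp. The median signal fell to 37.1 when each peak was counted once. With 1 replicate left out the counts were 78 to 91 (pooled) and 101 to 102 (upstream). A single replicate has no thresholded list, so its 295 highest peaks were taken in place of one. That gave 3 genes in each replicate, but different ones. They were mir-51, mir-61 and mir-250 in replicate 1, and mir-51, mir-80 and mir-54 in replicate 2. No paired analysis was possible because the design has 1 group. Fragments of 200 to 800 bp limit how closely a summit marks a site, and unknown depth limits what an absent peak shows.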

Other observations

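Beyond the windows used above, thresholded summits lay within 2000 bp of the span of several other miRNA genes, which were named after their values were seen. No background share was counted for this distance, so these summits are given as positions only. The summits of mir-51 and mir-80 described above were also 1376 bp from mir-53 and 1844 bp from mir-238. Of the others the highest, at 16209851 on X, had signal 148 and was 1816 bp downstream of mir-1819 and 1963 bp downstream of mir-2212; it ranked 65 in replicate 1 and 35 in replicate 2. At mir-235, a relative of miR-92 of other animals, a summit 1852 bp upstream had pooled signal 111, with 59.6 in replicate 1 and 44.5 in replicate 2. Summits downstream of mir-4812 (90.03) and mir-4814 (87.2) were 1400 and 1008 bp from the precursor.

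Among other groups with a shared seed, mir-238, mir-239.1 and mir-239.2 (seed UUGUACU) all had a pooled summit within 250 bp. None of mir-63, mir-64, mir-65, mir-66 and mir-229 (seed AUGACAC) had such a summit. The share over all miRNA genes was 34.5%. Both groups were named after their values were seen, and the difference was not tested. The summit at mir-238 had signal 33.7, below the list median of 34.9. That at mir-239.1 lay beside a snoRNA gene and was seen in a single replicate. mir-229, mir-64, mir-65 and mir-66 form a cluster of 755 bp, so they are not separate cases. The mir-35 family (seed CACCGGG) was the largest group, with 8 genes.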
